A study of Mus musculus with 18 samples.

Results

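The genes described here make, break down, carry or take up retinoic acid, the active form of vitamin A. They are 9 listed genes, found by the Ensembl identifier of the symbol among 55401 lines of the endothelial table and by symbol among 22612 lines of the EO771 table, and all 9 were present in both. Cyp26b1 was chosen by its endothelial values, being one of the genes that led the set higher in both high endothelial cells and their tumour group, so its endothelial values are given as a description with no p-value. The other 8 were listed with results of these data known, and it is not recorded which values, if any, selected them.

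The study asked which products of high endothelial cells act on tumour cells. The samples were 18 mouse libraries in 6 groups of 3. The endothelial cells were sorted as CD45- CD31high cells from wild-type female C57BL/6 mice, 5 to 6 weeks old as obtained: blood vessel endothelial cells (BECs, PNAd-) and high endothelial cells (HECs, PNAd+), which line the venules by which lymphocytes enter lymph nodes. BEC normal came from the mammary fat pad, BEC tumour from primary EO771 tumours grown in that fat pad, HEC normal from inguinal nodes of mice bearing no tumour, and HEC tumour from nodes of tumour-bearing mice, whose tissue is labelled lymph node metastases. Cell type and tissue therefore cannot be told apart. The last 2 groups were EO771 cells in culture, a breast cancer line from C57BL/6 mice, kept for 48 h either with 12-HETE at 100 nM, a lipid that ALOX12 makes from arachidonic acid, or with its vehicle, saline holding 2% DMSO. The libraries of a group are described in the study as independent experiments, and whether an endothelial library holds cells of more than 1 mouse is not given in the sources used here.

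Retinol enters cells through membrane proteins such as STRA6. Dehydrogenases such as RDH10 turn it into retinal, and the ALDH1A enzymes turn retinal into retinoic acid. CRABP2 hands retinoic acid to the nuclear receptors RARA, RARB and RARG, which switch on their target genes, while the CYP26 enzymes oxidise retinoic acid and so clear it. In lymph nodes that drain the gut, retinoic acid is known for imprinting gut homing on lymphocytes and for shaping their differentiation.

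A retinoic acid response element is classically a pair of half-sites in the same orientation with 5 bases between them. RefSeq start sites on GRCm38.p6 gave promoter windows, 250 bases before to 50 after the start, for 6 of the 9 genes (10 windows), and Aldh1a3, Rdh10 and Crabp2 had none. The half-site AGGTCA, the form AGTTCA, the form GGGTCA and the form GGTTCA were searched on both strands as pairs separated by 5 bases of any kind, which overlap the single half-site motif. Such pairs were present in 0.0974% of 32851 windows of the same length and in 2 of the members' windows, those of Cyp26a1 and Rarb. These 2 elements are shown with 6 bases on each side, and the upstream bases of Cyp26b1, the member with the highest level in HECs, are shown because they hold no such pair. Capitals mark the 17 bases of the match, and each sequence is written in the direction of its gene.
Rarb, chr14:16575507-16575535, minus strand: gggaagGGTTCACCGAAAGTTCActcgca
Cyp26a1, chr19:37697770-37697798, plus strand: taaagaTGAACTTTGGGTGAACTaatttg
Cyp26b1, chr6:84593909-84594060, minus strand: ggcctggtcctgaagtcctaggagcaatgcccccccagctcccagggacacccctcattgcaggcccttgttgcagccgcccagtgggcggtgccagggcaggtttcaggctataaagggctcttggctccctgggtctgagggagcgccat
In Rarb the pair lay 53 to 37 bases before the RefSeq start and ran with the gene, and in Cyp26a1 it lay 32 to 16 bases before the start on the opposite strand. By the GENCODE gene annotation the Rarb pair overlapped annotated exon bases, and the Cyp26a1 pair did not. Single half-sites were far less selective, being present in 43.7% of all windows and in 4 of the 10 windows of members. A match describes these letters only, and its absence draws nothing about the factor.

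The endothelial libraries summed to between 56.4 and 79.4 M, in values that rise by steps of about 3.7, so that 1 unit is not 1 fragment, and the EO771 libraries to between 17.3 and 18.6 M. Levels are DESeq2 normalised counts, a difference between groups is a log2 fold change ± SE, and calls needed an adjusted p under 0.05 together with a log2 fold change over 1 in size (DESeq2 Wald test, Benjamini-Hochberg over all genes tested). A true 0 allows up to 3 steps, or 11.1 units, in an endothelial library and 3 counts in an EO771 library. Glycam1 and Chst4, which mark high endothelium, were at 0 in both BEC groups, and the summed level of 6 such markers was 970 to 1327 CPM in HEC normal, 2219 to 3052 CPM in HEC tumour and 1.33 to 4.42 CPM in the BEC libraries. Of these 6 markers, Ccl21a was at 0 in both HEC groups and Ackr1 in HEC normal, with 0.025 CPM in HEC tumour. Enpp2 had means of 2.14 and 3.08 CPM in the HEC groups against 1.22 and 1.78 CPM in the BEC groups. The HEC sums therefore rest on Glycam1, Chst4 and Fut7. All 10 markers of endothelium in general were detected in each of the 4 groups. In bulk RNA, fewer cells of a type and less RNA per cell cannot be told apart. Marker lists of other cells differed between the BEC groups. The 10 fibroblast and pericyte markers summed to 903 to 920 CPM in BEC normal, with 9 over 1 CPM and Lum at 0, and to 103 to 135 CPM in BEC tumour. Acta2 was the largest part, with a mean of 622 CPM in BEC normal and 48.7 CPM in BEC tumour. Dcn (2.63 to 7.16 CPM) and Lum (0 to 0.354 CPM) were higher in BEC tumour, and the other markers of this list were lower. The 11 leukocyte markers summed to 8.02 to 13.8 CPM in BEC normal and to 632 to 1059 CPM in BEC tumour, with 7 over 1 CPM. Most of the latter was Lyz2, with a mean of 774 CPM. In the HEC libraries these sums were 11.7 to 27.9 CPM for fibroblasts and pericytes and 4.64 to 7.95 CPM for leukocytes.

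Among the breakdown enzymes, Cyp26b1 (ENSMUSG00000063415, GRCm38 chromosome 6 from 84571414 to 84593908, minus strand) was the most abundant retinoid member of HECs. Its normalised counts were 405, 319 and 350.5 in normal BECs, 166, 157 and 128 in tumour BECs, 2082, 1997 and 2102 in normal HECs and 7015, 6945 and 6881 in tumour HECs. No 2 of the 4 groups overlapped. HEC normal stood above BEC normal by a log2 fold change of 2.52 ± 0.10, which is 5.73-fold, and HEC tumour stood above BEC tumour by 5.53 ± 0.11, which is 46.2-fold. With tumour the level was 1.75 ± 0.09 higher in HECs and 1.26 ± 0.12 lower in BECs on the log2 scale. Subtracting the BEC change from the HEC change, the interaction, gave 3.01 ± 0.15. Leaving out any 1 library kept it between 2.90 and 3.09, the range over all alternatives tried.

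Cyp26a1 (ENSMUSG00000024987, chromosome 19 from 37697798 to 37701536, plus strand), the related enzyme whose promoter holds the response element shown above, was near the detection limit throughout. It had 0 normalised counts in every BEC normal library, 3.71, 0 and 2.62 in BEC tumour, 4.06, 15.3 and 7.64 in HEC normal, and 40.4, 14.8 and 4.43 in HEC tumour. Its mean count was under 10, so it was not tested. HEC tumour replicate 1 held most of the signal of its group. By reads, taken as units divided by the step, HEC tumour had 14 and BEC tumour 2, a ratio of 8.57 with a 95% exact counting interval from 1.97 to 77.7.

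**Figure D1:**
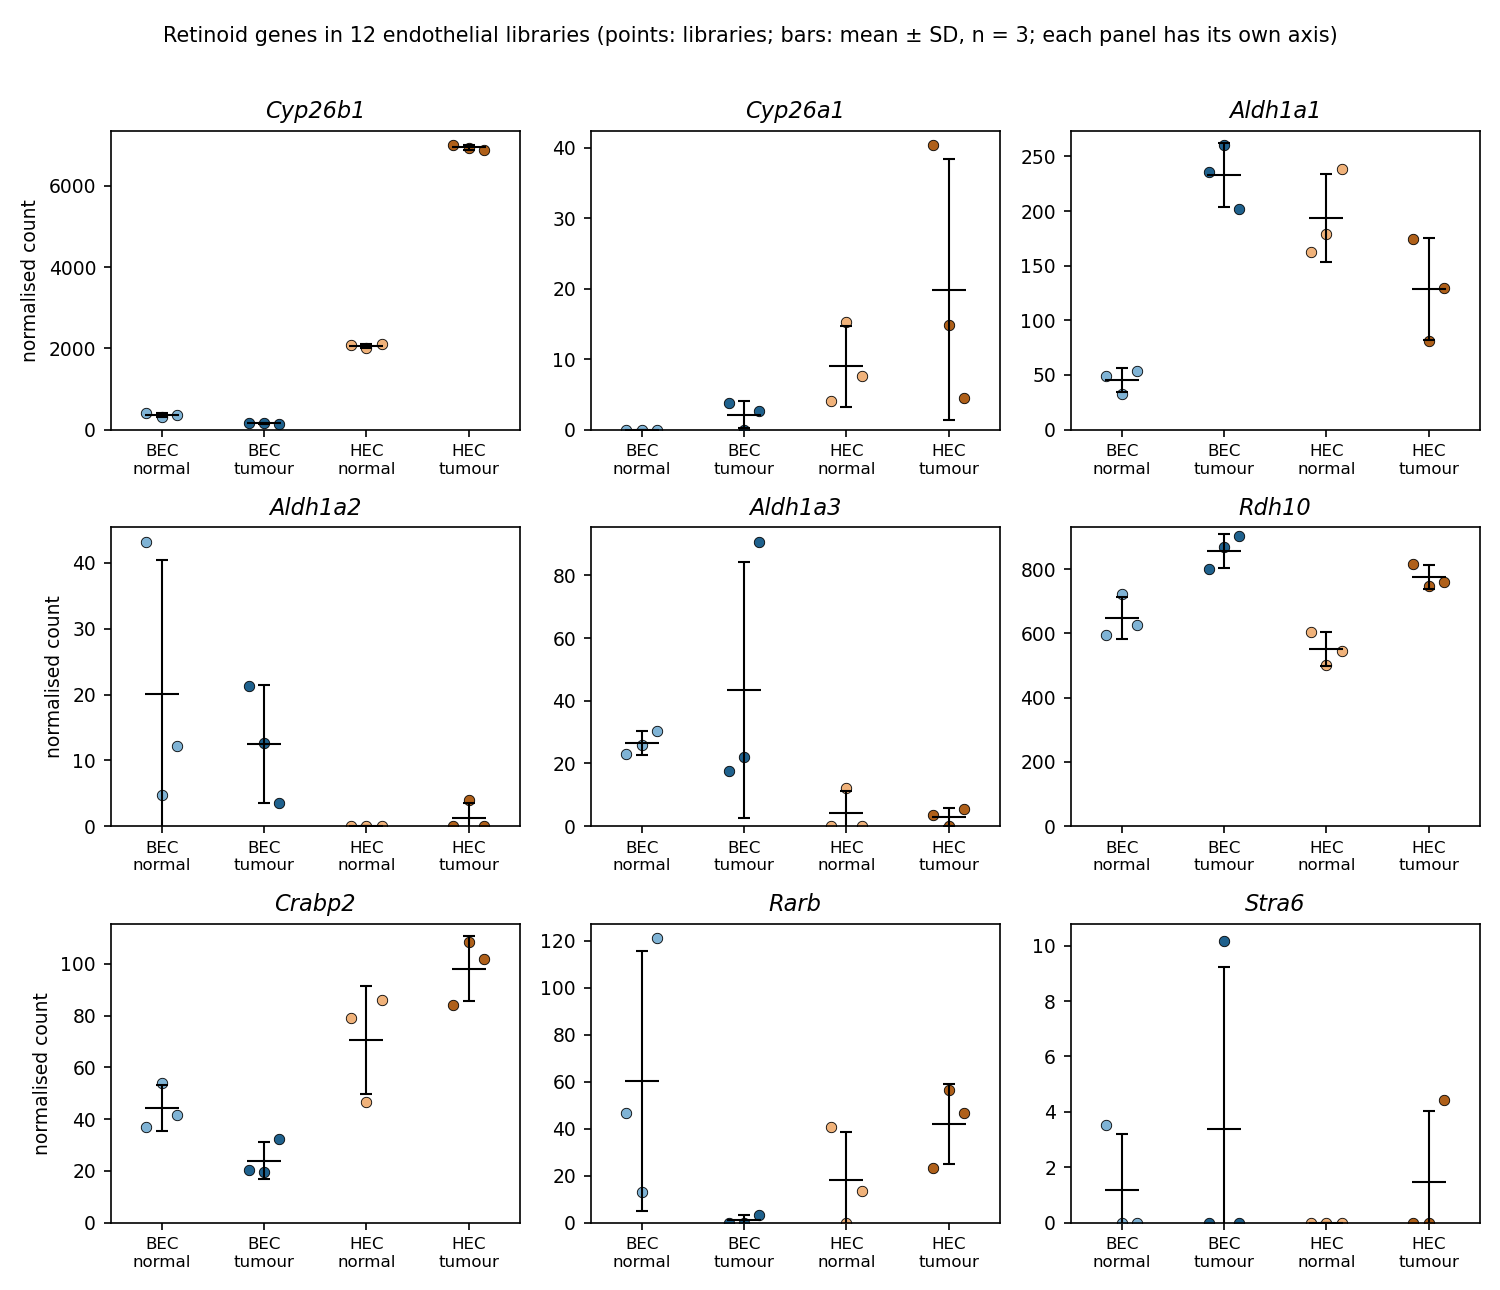
Normalised counts of the 9 retinoid genes in the 12 endothelial libraries, with each gene in a panel of its own linear axis that starts at 0. Points are libraries and bars the mean ± SD of 3 libraries per group. Cyp26b1 lies between 6881 and 7015 in HEC tumour and under 410 in all BEC libraries, and Aldh1a1 lies over 200 in BEC tumour against under 55 in BEC normal.

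Among the synthesis enzymes, Aldh1a1 (ENSMUSG00000053279, chromosome 19 from 20492715 to 20643465, plus strand) rose with tumour in BECs, while its change in HECs did not pass the test. It had 49.4, 32.9 and 53.8 normalised counts in normal BECs, 236, 261 and 202 in tumour BECs, 162, 179 and 239 in normal HECs and 174, 80.9 and 129.5 in tumour HECs. The BEC groups did not overlap, while the HEC groups did. The log2 fold change with tumour was 2.35 ± 0.34 in BECs (DESeq2 adjusted p = 2.57e-11) and −0.60 ± 0.33 in HECs (adjusted p = 0.149, 95% interval −1.24 to 0.04). The interaction was −2.95 ± 0.47 (adjusted p = 2.64e-09). Without tumours the HEC level exceeded that of BECs by 2.09 ± 0.34 (adjusted p = 3.37e-09). With tumours it was lower in HECs by 0.86 ± 0.32 on the log2 scale (adjusted p = 0.0163), which is under 2-fold and was not called, although without HEC tumour replicate 1 the value was −1.15 and was called (adjusted p = 0.00168). The leukocyte markers moved in sum with the rise in BECs, from at most 13.8 to at least 632 CPM, most of it Lyz2, and their part in it was not tested.

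Tumour cells in culture also hold Aldh1a1, as described below. Stra6, at 13862 to 16009 normalised counts in vehicle EO771 cells, had 0, 10.2 and 0 in the 3 BEC tumour libraries. Aldh1a1, at 8557 to 10794 in the same EO771 cells, had at least 202 in each BEC tumour library. The 6 epithelial and tumour cell markers rose in sum between the BEC groups, from 1.51 to 2.94 CPM without tumours to 8.98 to 77.6 CPM with them, and the part of tumour cells in the rise of Aldh1a1 was not tested.

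Aldh1a2 (ENSMUSG00000013584, chromosome 9 from 71215789 to 71296243, plus strand) was low in BECs and at or near 0 in HECs. Its normalised counts were 43.2, 4.71 and 12.2 in normal BECs, 21.3, 12.7 and 3.49 in tumour BECs, 0 in all 3 HEC normal libraries, and 0, 3.95 and 0 in HEC tumour. BEC normal was at least 1.81-fold higher than HEC normal, taking the 11.1 units that a true 0 allows in a library as the level of the latter. This bound rests on BEC normal replicate 1, since the mean of the other BEC normal libraries, 8.45, is under that limit. It was not tested, because its mean was under 10.

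Aldh1a3 (ENSMUSG00000015134, chromosome 7 from 66390890 to 66427517, minus strand) had 22.9, 25.9 and 30.5 normalised counts in normal BECs, 17.6, 22.0 and 90.7 in tumour BECs, 0, 12.2 and 0 in normal HECs and 3.46, 0 and 5.53 in tumour HECs. BEC libraries lay above HEC libraries both without and with tumours. With tumours HECs were lower by 3.87 ± 1.44 on the log2 scale (adjusted p = 0.0151), but without BEC tumour replicate 3 the value was −2.74 and no longer called (adjusted p = 0.175). By reads the groups held 40 and 2, a ratio of 16.3 with a 95% exact counting interval from 4.24 to 139.5. BEC tumour replicate 3 also had the highest summed level of the 6 epithelial and tumour cell markers, 77.6 CPM against 8.98 and 12.0 CPM in the other BEC tumour libraries, and the part of such cells was not tested. Cultured EO771 cells had at most 2 counts of Aldh1a3 in a library. Without tumours the difference was −2.70 ± 1.42 (adjusted p = 0.0840), and without HEC normal replicate 2, the only HEC normal library with reads, it was called (adjusted p = 0.000183).

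Rdh10 (ENSMUSG00000025921, chromosome 1 from 16105774 to 16133734, plus strand), the retinol dehydrogenase of the first step, varied least of the tested members. It had 594, 721 and 627 normalised counts in normal BECs, 799.6, 869.7 and 902 in tumour BECs, 605, 502 and 546 in normal HECs and 817, 746 and 760.4 in tumour HECs. In both cell types the tumour libraries lay above the normal ones without overlap. The log2 fold change with tumour was 0.41 ± 0.12 in BECs (adjusted p = 0.00156) and 0.49 ± 0.12 in HECs (adjusted p = 0.000264), both under 2-fold and so not called. The difference between these changes was 0.08 ± 0.17 (adjusted p = 0.720), with a 95% interval from −0.25 to 0.42. HECs and BECs differed by −0.23 ± 0.12 without tumours (adjusted p = 0.0840) and by −0.15 ± 0.12 with them (adjusted p = 0.299).

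**Figure D2:**
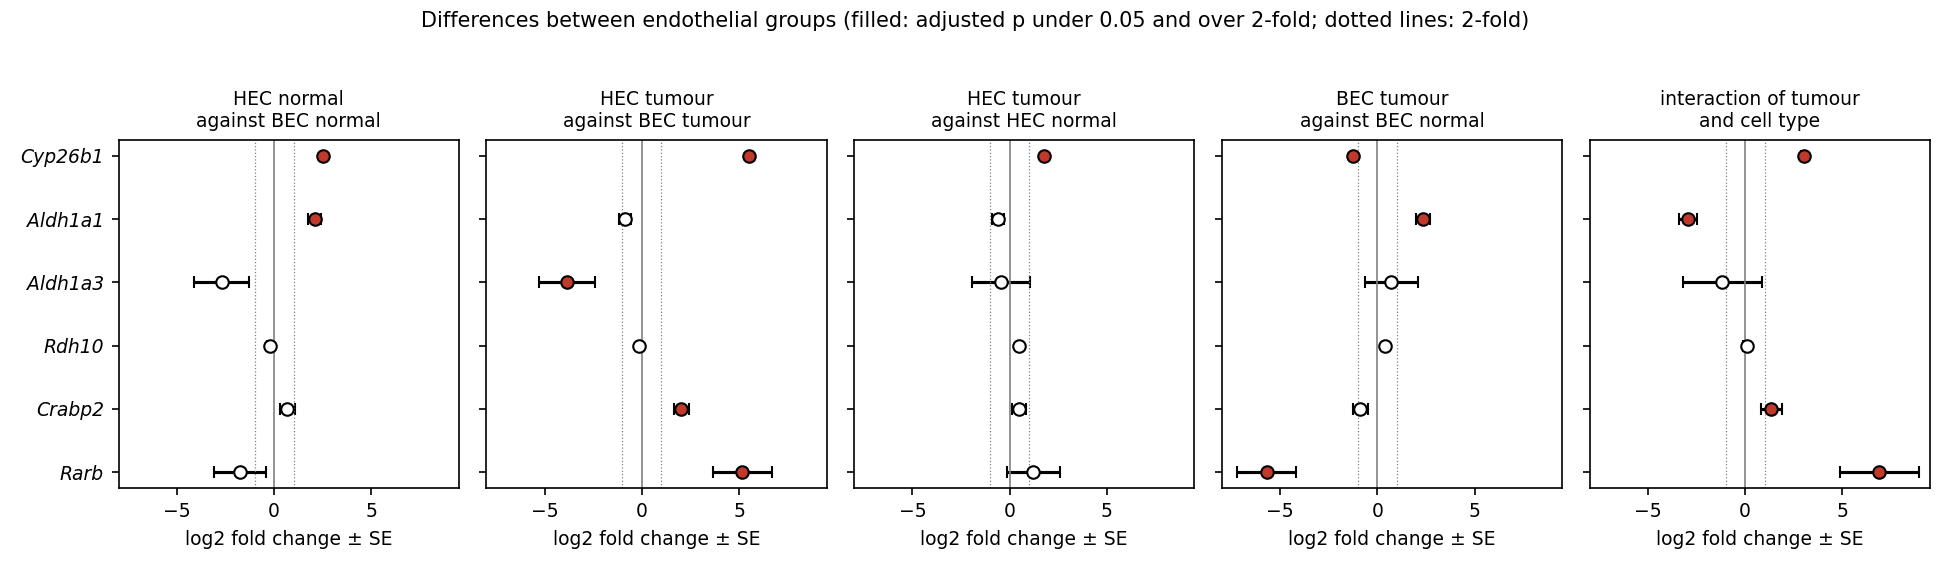
Log2 fold changes ± SE of the 6 retinoid genes tested in the endothelial libraries, in 5 panels for the 4 comparisons of groups and the interaction, with filled points for genes called. Cyp26b1 (1.75 in HECs, −1.26 in BECs) and Aldh1a1 (−0.60 and 2.35) lie on opposite sides with tumour, Rdh10 stays within 0.50 of 0, and the wide bars belong to Aldh1a3 and Rarb, which rest on few reads. Cyp26b1 was chosen by these values.

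The binding protein Crabp2 (ENSMUSG00000004885, chromosome 3 from 87948666 to 87953376, plus strand) had 37.0, 54.1 and 41.6 normalised counts in normal BECs, 20.4, 19.5 and 32.3 in tumour BECs, 79.1, 46.8 and 86.0 in normal HECs and 84.3, 109 and 102 in tumour HECs. All HEC tumour libraries lay above all BEC libraries. The difference between HECs and BECs was 2.03 ± 0.38 on the log2 scale with tumours (adjusted p = 4.87e-07) and 0.68 ± 0.37 without them (adjusted p = 0.0995). The interaction was 1.35 ± 0.53 (adjusted p = 0.0268). It was no longer past the adjusted p in 6 of the 12 fits that left out a library (BEC normal replicate 2, BEC tumour replicates 1 and 2, HEC normal replicate 2, and HEC tumour replicates 2 and 3), where it ran from 1.12 to 1.32 with an adjusted p of 0.0603 to 0.0847, nor in the fit on values divided by their step (adjusted p = 0.0840). In BECs the change with tumour was −0.87 ± 0.39 (adjusted p = 0.0488), under 2-fold, and without BEC tumour replicate 3 it was −1.14 and called (adjusted p = 0.0212). In HECs it was 0.48 ± 0.36 (adjusted p = 0.329).

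Rarb (ENSMUSG00000017491, chromosome 14 from 16430839 to 16819156, minus strand), a retinoic acid receptor that is itself a textbook target of the hormone, was nearly absent from BEC tumour. Its normalised counts were 46.7, 12.9 and 121 in normal BECs, 0, 0 and 3.49 in tumour BECs, 40.6, 0 and 13.4 in normal HECs and 23.1, 56.2 and 46.5 in tumour HECs. BEC tumour lay below BEC normal and below HEC tumour with no overlap, while the remaining pairs of groups overlapped. The log2 fold change with tumour was −5.69 ± 1.52 in BECs (adjusted p = 0.000505) and 1.22 ± 1.35 in HECs (adjusted p = 0.532), and the interaction was 6.91 ± 2.03 (adjusted p = 0.00204). With tumours HECs were higher by 5.17 ± 1.52 (adjusted p = 0.00173), and without them the difference was −1.74 ± 1.35 (adjusted p = 0.256). These sizes rest on 1 read in BEC tumour. By reads, BEC normal held 49 against that 1, a ratio of 56.2 with a 95% exact counting interval from 9.63 to 2266, and HEC tumour held 31, a ratio of 38.0 with an interval from 6.32 to 1547. The fall in BECs was −4.69 without BEC normal replicate 3 and −8.53 without BEC tumour replicate 3, the excess in HEC tumour over BEC tumour was 4.57 without BEC tumour replicate 2 and 8.01 without replicate 3, and the interaction ran from 5.91 to 9.75 over the alternatives. All of these were called. Exons of Rarb overlap those of Top2b and Gm48162 on the other strand over 38.4% of its exon bases, and the strand used in counting is not given in the sources used here, so its values are uncertain. The fibroblast and pericyte markers fell in sum with Rarb in BECs, from at least 903 to at most 135 CPM, most of it Acta2, while Dcn and Lum rose. Their part was not tested.

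Stra6 (ENSMUSG00000032327, chromosome 9 from 58063788 to 58153996, plus strand), the uptake receptor, stood at the detection limit in the endothelial groups. It had 3.53, 0 and 0 normalised counts in normal BECs, 0, 10.2 and 0 in tumour BECs, 0 in all 3 HEC normal libraries, and 0, 0 and 4.43 in HEC tumour. The highest library held 12 deposited units, next to the 11.1 that a true 0 allows, and all 4 group means were under that limit, so no fold is given.

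The counts of members called are read against the share of all genes. Cyp26b1 is counted among them, was chosen by these contrasts and adds nothing to the reading. Between HEC normal and BEC normal, 2 of 6 tested members were higher and 0 lower (Cyp26b1 and Aldh1a1), where 17.1% of 18511 genes were called higher and 15.1% lower. Between HEC tumour and BEC tumour, 3 were higher (Cyp26b1, Crabp2 and Rarb) and 1 lower (Aldh1a3), where 11.2% and 10.7% of all genes were. In HECs with tumour 1 was higher and 0 lower, where 4.58% and 3.21% of all genes were. In BECs with tumour 1 was higher (Aldh1a1) and 2 lower (Cyp26b1 and Rarb), where 12.4% and 10.8% were. For the interaction 3 were positive (Cyp26b1, Crabp2 and Rarb) and 1 negative (Aldh1a1), against 11.2% and 12.1%. A count over 6 genes that passed a filter on low values is a description of these genes and no sign about the pathway.

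Per length of transcript, the enzymes of breakdown and synthesis stood in different order in the groups. This ratio was chosen after the values were seen. The Cyp26 transcripts (Cyp26a1, Cyp26b1 and Cyp26c1) summed to 0.968 ± 0.129 CPM per kb in normal BECs, 0.444 ± 0.061 in tumour BECs, 5.75 ± 0.17 in normal HECs and 20.2 ± 0.25 in tumour HECs (SD, n = 3). The Aldh1a transcripts (Aldh1a1, Aldh1a2 and Aldh1a3) summed to 0.345 ± 0.147, 0.924 ± 0.016, 0.587 ± 0.116 and 0.419 ± 0.137 CPM per kb. Within a library, Cyp26 over Aldh1a was 2.22 to 4.15 in normal BECs, 0.407 to 0.540 in tumour BECs, 8.33 to 12.0 in normal HECs and 37.0 to 72.0 in tumour HECs. The groups did not overlap, and BEC tumour was the only endothelial group in which the synthesis transcripts exceeded those of breakdown. Cyp26b1, which was chosen by its endothelial values, made up nearly all of the first sum. Transcript levels are not enzyme activities.

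**Figure D3:**
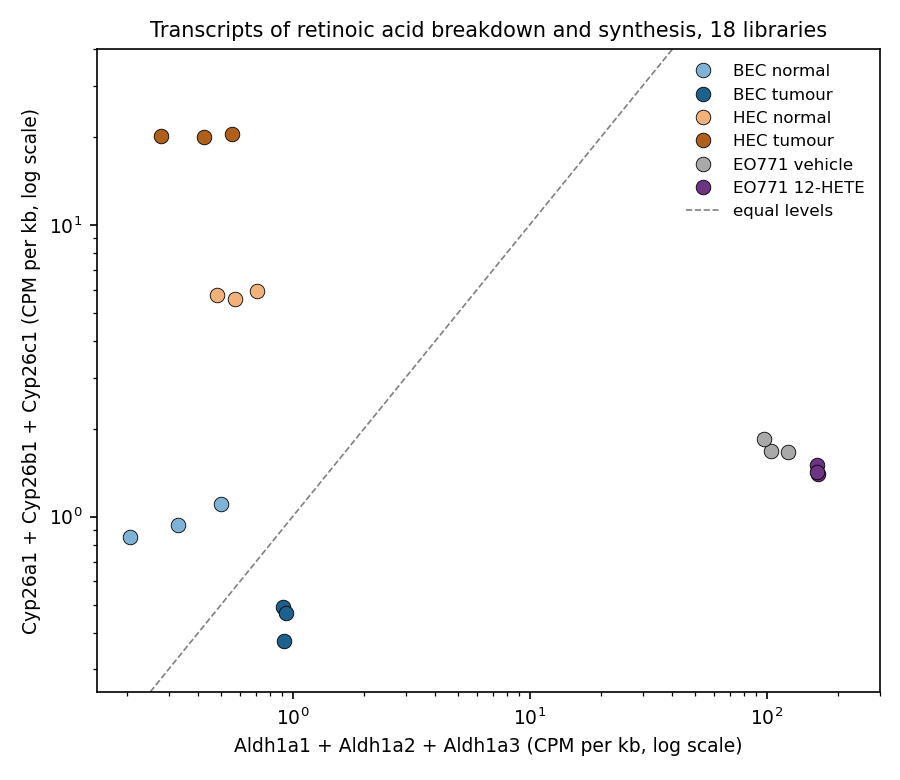
Summed Cyp26 transcripts against summed Aldh1a transcripts in CPM per kb of transcript, 1 point for each of the 18 libraries, on log axes, with a dashed line where both are equal. HEC tumour lies farthest above the line, with ratios from 37.0 to 72.0, BEC tumour lies below it, and the EO771 libraries lie at the lower right with about 100 CPM per kb or more of Aldh1a. The endothelial and EO771 tables were made and normalised separately.

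In EO771 cells the uptake receptor and a synthesis enzyme were abundant, and 12-HETE was followed by small rises of both. Stra6 had 14880.2, 16009 and 13862 normalised counts with vehicle and 18825, 17923 and 17734 with 12-HETE. Aldh1a1 had 9263, 10794 and 8557 with vehicle and 14733, 14653 and 14813 with 12-HETE. Rdh10 had 209.8, 300.1 and 249.8 with vehicle and 415, 429.7 and 396 with 12-HETE. For each of these 3 genes every 12-HETE library lay above every vehicle library. The share of all genes that separate in this way is not given here, so this only describes these 3. The log2 fold changes were 0.63 ± 0.11 for Aldh1a1 (DESeq2 adjusted p = 6.50e-08), 0.71 ± 0.16 for Rdh10 (adjusted p = 8.20e-05) and 0.28 ± 0.09 for Stra6 (adjusted p = 0.00444). These are 1.54-fold, 1.63-fold and 1.22-fold, so none was called.

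Cyp26b1 did not follow them. It had 142, 139 and 156 normalised counts with vehicle and 134, 139 and 134 with 12-HETE, a log2 fold change of −0.10 ± 0.17 (adjusted p = 0.660) with a 95% interval from −0.44 to 0.24. Crabp2 had 8.91, 9.56 and 6.14 with vehicle and 15.4, 6.90 and 11.8 with 12-HETE and was under the filter. Cyp26a1 had at most 4 counts and Aldh1a3 at most 2 in a library, and Aldh1a2 and Rarb were at 0 in all 6. Of the 4 members tested 0 were called in either direction with DESeq2 and 0 with edgeR. In 3 of them the DESeq2 adjusted p was under 0.05 with a change under 2-fold. The share of all genes past the adjusted p alone is not given here, so this count only describes these 3. Among all 11602 genes 2.38% were called higher and 7.79% lower.

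**Figure D4:**
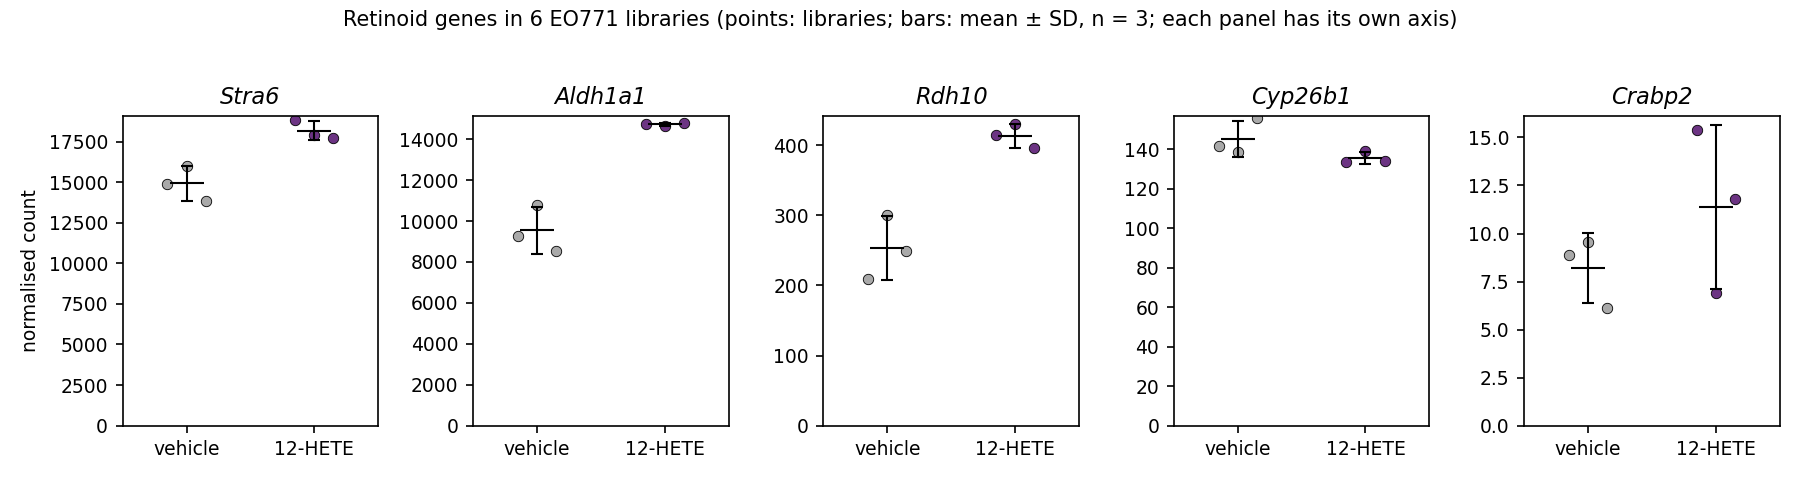
Normalised counts of 5 retinoid genes in the 6 EO771 libraries, 1 panel and 1 linear axis from 0 per gene. Points are libraries and bars the mean ± SD of 3. Stra6, Aldh1a1 and Rdh10 are higher in all 12-HETE libraries than in all vehicle libraries by 1.22-fold to 1.63-fold, and Cyp26b1 overlaps at 134 to 156.

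Per length, Stra6 and Aldh1a1 led in EO771. In endothelium Stra6 was at the detection limit, and Aldh1a1 had group means of at most 0.702 CPM per kb. The endothelial and EO771 tables were made and normalised separately. With vehicle Stra6 stood at 144 ± 10.6 CPM per kb, Aldh1a1 at 108 ± 13.4, Rdh10 at 3.42 ± 0.64, Cyp26b1 at 1.52 ± 0.10 and Crabp2 at 0.348 ± 0.076 (SD, n = 3). In HEC tumour Cyp26b1 led at 20.02 ± 0.12 CPM per kb, before Rdh10 at 2.87 ± 0.13, Crabp2 at 1.15 ± 0.15 and Aldh1a1 at 0.4003 ± 0.145. In BEC tumour Rdh10 led at 3.07 ± 0.18 CPM per kb, before Aldh1a1 at 0.702 ± 0.089, Cyp26b1 at 0.419 ± 0.056 and Crabp2 at 0.271 ± 0.080. Within an EO771 library, Aldh1a over Cyp26 was 53.2 to 74.2 with vehicle and 108 to 117 with 12-HETE. The 12-HETE libraries resembled one another more closely than the vehicle libraries did, with a chi-square per gene of 2.39 to 2.72 against 16.5 to 46.3 between pairs. With 12-HETE the 6 epithelial and tumour cell markers also fell in sum from 2868 to 3785 CPM to 1930 to 1986 CPM, while the 10 fibroblast and pericyte markers went from 391 to 614 CPM to 998 to 1037 CPM, most of it Dcn, with Lum at 0 in both groups, and the part of these differences in the values above was not tested.

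A wider list of 43 retinoid genes, grouped by role, gives the surroundings of the 9. Of these, 35 were tested in the endothelial and 24 in the EO771 table. In BECs with tumour 7 rose and 9 fell, where 12.4% of all genes rose and 10.8% fell, with a median log2 fold change of −0.22 against 0.01 over all tested genes. In HECs with tumour 1 rose and 1 fell, where 4.58% and 3.21% of all genes did, with a median of 0.20 against 0.02. Between HEC normal and BEC normal 7 were higher and 6 lower (17.1% and 15.1% of all genes, median 0.18 against 0.00), and between HEC tumour and BEC tumour 7 were higher and 8 lower (11.2% and 10.7% of all genes, median 0.23 against 0.01). For the interaction 7 were positive and 6 negative, against 11.2% and 12.1%. With 12-HETE 0 rose and 2 fell in EO771, where 2.38% and 7.79% of all genes did, with a median of −0.33 against 0.00. The 2 calls in HECs and the 2 in EO771 are near these shares. By adjusted p alone, 14 of 35 tested genes in HECs with tumour and 14 of 24 in EO771 were under 0.05. In EO771 every 12-HETE library lay below every vehicle library for 13 of the 24 and above for 3. The shares of all genes by these measures are not given here, so these counts are a description.

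Of the carriers and storage proteins 6 were tested. With tumour in BECs 5 were called lower and 1 higher, where 10.8% and 12.4% of all genes were. One of the 5, Ttr, had both groups under the limit that a true 0 allows. Rbp7, a cellular retinol-binding protein of endothelium and fat, had 108, 77.7 and 150.3 normalised counts in BEC normal and 11.1, 9.31 and 26.2 in BEC tumour, and so fell by 2.85 ± 0.56 on the log2 scale (adjusted p = 1.46e-06). In HECs it rose by 1.76 ± 0.57 (adjusted p = 0.00798), from 8.11, 16.3 and 22.0 to 36.9, 47.4 and 73.1, and the interaction was 4.61 ± 0.80 (adjusted p = 5.29e-08). The rise in HECs was not called without HEC normal replicate 1 (1.45, adjusted p = 0.0504) or HEC tumour replicate 3 (1.44, adjusted p = 0.0722). Stra6l, which encodes the second retinol-binding protein receptor, went the other way. It had 0, 0 and 4.06 in BEC normal and 338, 374 and 194 in BEC tumour, a ratio by reads of 242 with a 95% exact counting interval from 43.1 to 9600.0, and the DESeq2 adjusted p was 1.15e-15. In HECs it had 8.11, 12.2 and 20.1 without tumours and 43.9, 42.4 and 11.1 with them (adjusted p = 0.130), and its interaction was −6.53 ± 1.15 (adjusted p = 9.27e-08).

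Ttr, which encodes the plasma carrier transthyretin, had 98.4, 162 and 161 normalised counts in HEC normal and 239, 105 and 189 in HEC tumour, against 9.70, 0 and 0 in BEC normal and 0 in all 3 BEC tumour libraries. HEC tumour was at least 16-fold above BEC tumour. It was also called lower with tumour in BECs (adjusted p = 0.00775) and positive for the interaction (4.73 ± 1.71, adjusted p = 0.0143), neither of which was called without BEC normal replicate 1 (interaction 0.65, adjusted p = 0.818), and both BEC groups were under the limit that a true 0 allows, so no fold is given.

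Of the genes that interconvert retinol and retinal, 12 of 13 were tested. With tumour 2 rose and 1 fell in BECs, where 12.4% and 10.8% of all genes did. In HECs 0 were called, where 4.58% of all genes were called higher and 3.21% lower. Rdh12, a retinal reductase, rose in BECs by 2.18 ± 0.21 (adjusted p = 3.05e-24), from 296, 317 and 186 to 1299.5, 1164 and 1166, and its interaction was −3.01 ± 0.29 (adjusted p = 2.95e-23). In HECs it had 911, 1116 and 1047 without tumours and 643, 632 and 454 with them, a log2 fold change of −0.83 ± 0.21 (adjusted p = 0.000343) that stayed under 2-fold. The alcohol dehydrogenase Adh7 had 366, 412 and 432 in normal BECs, 51.9, 64.3 and 68.9 in tumour BECs, 25.4, 50.9 and 30.6 in normal HECs and 32.3, 76.0 and 62.0 in tumour HECs, and its interaction was 3.39 ± 0.51 (adjusted p = 1.89e-10). Adh1 in HECs exceeded the BEC level by 3.24 ± 0.79 without tumours (adjusted p = 0.000107) and by 2.98 ± 0.77 with them (adjusted p = 0.000341), and BEC libraries had 0 to 21.2 against 74.5 to 106 in HEC libraries. In EO771 Dhrs9, another retinol dehydrogenase, fell by 2.66 ± 0.28 with 12-HETE (adjusted p = 5.35e-20), from 239, 174 and 279 to 25.7, 42.4 and 41.3.

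The carotenoid-cleaving enzyme Bco2 moved in opposite directions in the 2 endothelial types. It rose in BECs by 1.73 ± 0.68 (adjusted p = 0.0222), from 13.2, 20.005 and 8.13 to 59.4, 32.1 and 45.3. It fell in HECs by 2.14 ± 0.68 (adjusted p = 0.00637), from 90.3, 57 and 46.8 to 30.0, 9.87 and 4.43, and the interaction was −3.87 ± 0.96 (adjusted p = 0.000211). The interaction was called in every fit, but the rise in BECs was not called without BEC normal replicates 1 or 3 or BEC tumour replicates 1 or 3 (adjusted p from 0.0602 to 0.107), and the fall in HECs was not called without HEC normal replicate 1 (−1.82, adjusted p = 0.0587). In EO771 cells it fell with 12-HETE by 2.97 ± 0.45 (adjusted p = 8.16e-10), from 54.4, 61.2 and 48.1 to 4.11, 7.88 and 8.86. Aldh8a1, a retinal dehydrogenase outside the ALDH1A group, was called higher in HEC tumour than in BEC tumour (adjusted p = 0.0130), with 26.6, 26.6 and 11.1 against 3.71, 0 and 0, a ratio by reads of 19.6 with a 95% exact counting interval from 3.04 to 821. It was not called without HEC tumour replicate 1 (adjusted p = 0.0544) or 2 (adjusted p = 0.0564).

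Both intracellular binding proteins outside the members were lower in HECs. Crabp1 was at 0 in all 6 HEC libraries and had 96.1, 75.3 and 49.8 normalised counts in BEC normal, at least 6.64-fold more than HEC normal. It fell with tumour in BECs by 3.26 ± 0.78 (adjusted p = 9.16e-05), to 11.1, 5.08 and 6.97. Between the tumour groups it was called (adjusted p = 0.000515), with both under the limit that a true 0 allows. Fabp5, which can carry retinoic acid to the receptor PPARD, was abundant in BECs, with 5654, 5947 and 6030.0 in BEC normal and 4863, 4320.4 and 3886 in BEC tumour. In HEC normal it had 641, 633 and 536 and in HEC tumour 420.2, 363 and 437, a log2 fold change of −3.42 ± 0.12 between the tumour groups (adjusted p = 2.63e-184).

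Of the 6 receptors on the list 5 were tested, and few were called. Rarg fell with tumour in BECs by 1.19 ± 0.08 (adjusted p = 3.06e-48), and Rara was higher in HEC tumour than in BEC tumour by 1.01 ± 0.06 (adjusted p = 2.72e-66), just past 2-fold and under it in 6 of the alternatives, where it was at least 0.98. Both were named after their values were seen. Of the known retinoic acid targets on the list 8 were tested. With tumour 0 were called in HECs, where 4.58% of all genes were called higher and 3.21% lower. In BECs 3 rose and 1 fell with tumour, where 12.4% and 10.8% of all genes did. Rarres1 was at 0 in all 6 HEC libraries and had 89.9, 226 and 190.0 normalised counts in BEC normal and 68.6, 84.6 and 65.4 in BEC tumour, at least 15.2-fold and at least 6.57-fold above HECs. Rarres2 rose in BECs by 2.08 ± 0.91 (adjusted p = 0.0414), a call lost without BEC normal replicate 2 or BEC tumour replicates 1 or 2 (adjusted p from 0.0706 to 0.190) and with edgeR (adjusted p = 0.0800). Hoxa5 and Nrip1, named after their values were seen, rose there by 1.86 ± 0.20 (adjusted p = 6.56e-20) and 1.81 ± 0.37 (adjusted p = 5.34e-06). The changes in BECs went with the fibroblast, pericyte and leukocyte markers given above, whose part in them was not tested.

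**Figure D5:**
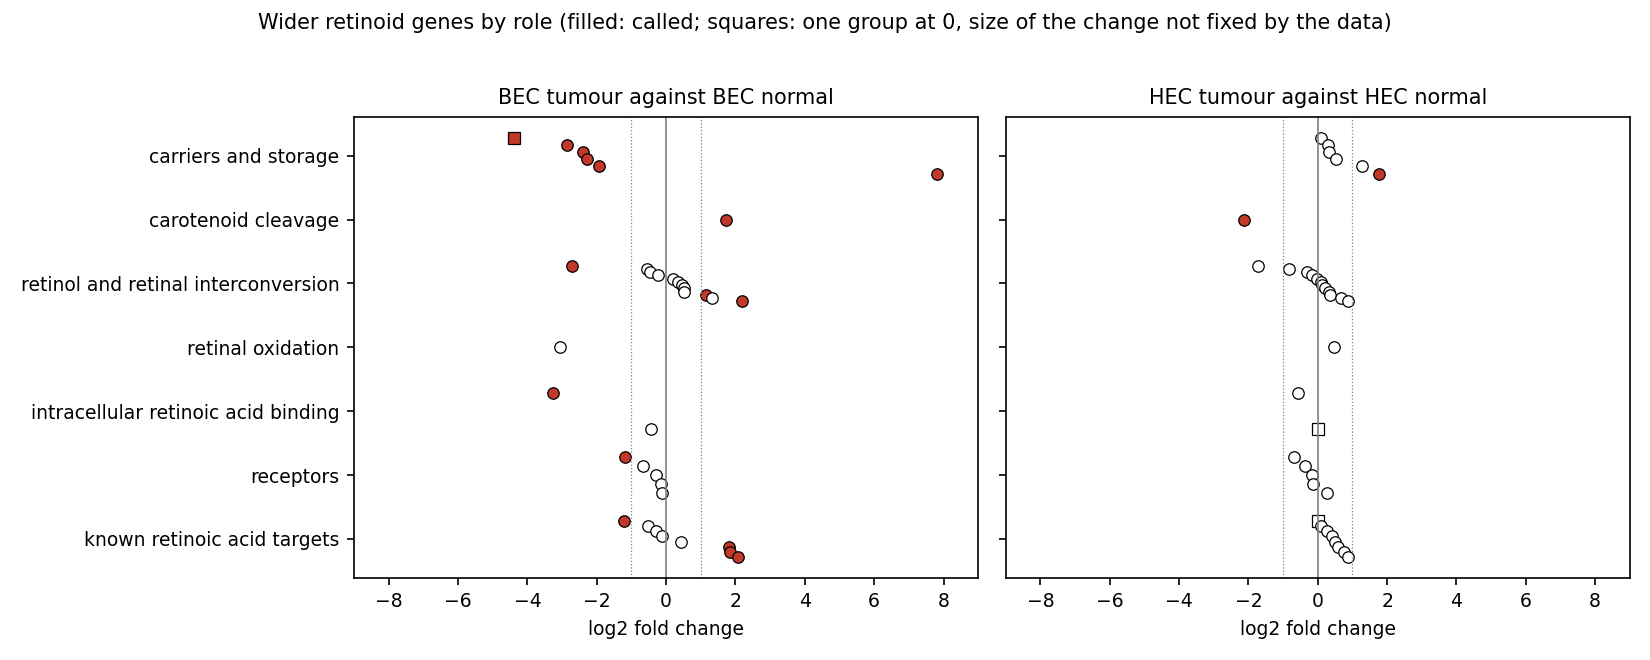
Log2 fold changes of the 35 tested genes of the wider retinoid list by role, with tumour in BECs (left) and in HECs (right). Filled points are called genes, squares are genes with 1 or both groups at 0, and dotted lines mark 2-fold. In BECs 16 genes are called, 7 higher and 9 lower, and in HECs 2, Rbp7 to the right and Bco2 to the left.

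The genes whose levels followed Cyp26b1 most closely over the 12 endothelial libraries were Vamp2 (Pearson's r of log2 normalised counts 0.996), Loxl4 (0.995), Thbd (0.994), Ezr (0.994) and Klf4 (0.994), among 13289 genes with a mean of at least 100. All 5 had the same order of group means as Cyp26b1, lowest in BEC tumour and highest in HEC tumour. They were picked by this correlation over the same libraries, so the shared order is no separate result. Their range was narrower. Vamp2 went from 1833 to 5613 normalised counts and Thbd from 18042 to 65665, where Cyp26b1 went from 151 to 6947. The 12 points form 4 groups that share tissue and library preparation, so the likeness is a description.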

How the data were processed

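RNA was sequenced from 12 sorted endothelial and 6 EO771 libraries. According to the study's methods, the authors used STAR for alignment and featureCounts for counting, on GRCm38. As deposited, the values of endothelial libraries are whole numbers in steps of about 3.7, treated as estimated counts. The deposited EO771 values are raw counts per gene. The origin of the steps and the strand used in counting are not given in the sources used here. Each table was fitted with DESeq2 1.42.0 in R 4.3.3 (Wald test, Benjamini-Hochberg adjustment) after removing genes with a mean under 10, all groups of a table sharing 1 dispersion estimate. EdgeR 4.0.16, TMM size factors, no filter, a replicate block, values divided by their step, fits of 2 groups and fits without each library were alternatives. Reading them for single genes of the wider list, and bounds without each library, were added after seeing the data. The scripts were tested on simulated data. An exact two-sided permutation test of 3 against 3 cannot go under p = 0.1 and was not used for calls. CPM per kb divides by the union of exon bases. Counting intervals are exact 95% intervals and cover counting error only. The members and lists were chosen with earlier results of these data known. All 9 members are named, with up to 3 genes of the wider list per direction and comparison (1 of these is not reported here) and the 5 genes most like Cyp26b1. Columns without a sample numbered 0.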

Additional observations from a re-analysis of the deposited data

Results flagged for a closer look

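By the interaction term of DESeq2, 4 of the 6 tested members were called for a different change with tumour in the 2 cell types, where 11.2% of all genes were called positive and 12.1% negative. One of the 4 was chosen by these values. Cyp26b1, chosen by these values, had an interaction of 3.01 on the log2 scale, with all HEC tumour libraries above and all BEC tumour libraries below their normal groups. Aldh1a1 had −2.95, Crabp2 1.35 and Rarb 6.91. The value of Rarb rests on 1 read in BEC tumour, and that of Crabp2 was no longer past the adjusted p in 7 of its 17 alternatives. Cell type and tissue of origin cannot be told apart in these groups.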

How the results depend on the processing

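Of 150 recomputed counts of genes called, 147 stayed within 1.5 times the value given. The members called between HEC normal and BEC normal went from 2 to 4 with no filter on the mean count, where genes under the filter are tested too, and the wider genes called in HECs with tumour went from 2 to 1 without HEC normal replicate 1, where neither Rbp7 nor Bco2 was called. Over the fits that left out 1 library, the members called ranged from 2 to 4 (without HEC normal replicate 2) between HEC normal and BEC normal, and the wider genes called in HECs with tumour from 1 to 3. Aldh1a3, which rests on few reads, changed sign without being called. Leaving out 1 library, its log2 fold change with tumour ran from −1.27 to 4.02 in HECs (0.15 without HEC tumour replicate 2), from −0.41 to 1.09 in BECs and, for the interaction, from −1.99 to 3.30. The cause was not tested. Whether equal replicate numbers mark paired libraries is not given in the sources used here. Of same-numbered pairs, 0 of 18 endothelial and 1 of 3 EO771 had correlated deviations over 0.1. The EO771 values ran from 0.0254 to 0.154. Low correlations of this kind cannot show that libraries were unpaired. With a replicate block the members called stayed at 2, 4, 1, 3, 4 and 0 in the order cell types without tumours, cell types with tumours, HECs with tumour, BECs with tumour, interaction and EO771. Over all genes the block gave 6000, 4063, 1379, 4242, 4224 and 1083 calls. Reads under the limit of a true 0 bound Cyp26a1, Aldh1a2, Aldh1a3, Rarb and Stra6.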
